A study of Mus musculus with 1 sample.

Results

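The MHC class II pathway genes H2-Aa, H2-Ab1, H2-Eb1, H2-DMa, H2-DMb1 and Cd74 were described over the individual cells of a sorted alveolar macrophage (AM) library. They were chosen by name, as the genes for the classical class II chains, the DM chains and the invariant chain, and are 6 of the 11918 genes listed for this library. AMs, the macrophages of the lung airspaces, were sorted as CD45+CD11c+SiglecF+ cells from 1 adult WT mouse, which carried the Hdac3 fl/fl alleles without Cre. The labels give an FVB/NJ strain backcrossed to C57BL/6 for over 10 generations and an age of 8 to 12 weeks. The study asked how these cells depend on HDAC3, a histone deacetylase, and the library of the HDAC3-deleted cKO mice was not analysed here. With 1 library there is no error between mice and no test, so every interval below is an exact 95% interval that covers counting error only.

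MHC class II molecules present peptides from the endosomal compartment to CD4+ T cells. The alpha chain H2-Aa pairs with the beta chain H2-Ab1 (I-A), H2-Eb1 is the beta chain of I-E, and Cd74, the invariant chain, holds and guides the new dimers until it is cut away. The DM dimer of H2-DMa and H2-DMb1 then exchanges the last invariant chain fragment for a peptide. The coactivator CIITA acts at a shared promoter module, the X and Y boxes, and is the known switch of the whole group. AMs at rest are known for low class II compared with dendritic cells and B cells.

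The 10x Genomics 3' assay counts each captured RNA molecule once by its unique molecular identifier (UMI), so that levels of genes could be set side by side per molecule whatever their length. The library held 2055 cells and 7222978 UMIs, with 1143 to 8603 UMIs per cell (median 3278) and no repeated barcode. All 13 genes of the AM marker list were detected, Chil3 and Lyz2 in every cell and Mrc1 in 92.7%. Siglecf, which encodes a protein used for the sort, had a UMI in 41.4% of cells. Whether the other cells held Siglecf RNA that was not counted was not measured. A count of 0 over the library would limit the share of cells with a UMI to 0.146%, not the share that express the gene.

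The 5 H2 genes lie in the MHC on chromosome 17 (GRCm38, GENCODE annotation). H2-DMa spans chr17:34119541-34139101 and H2-DMb1 chr17:34153072-34160230, both on the plus strand. H2-Ab1 follows at chr17:34257689-34269419 on the plus strand, H2-Aa at chr17:34282744-34287823 on the minus strand and H2-Eb1 at chr17:34305867-34316674 on the plus strand. Cd74 lies apart, on another chromosome. None of the 98-base stretches in the last 300 bases of the 6 genes' transcripts occurred in a transcript of another gene. H2-DMa overlaps Brd2 and H2-Eb1 overlaps Gm20513, each on the opposite strand, and H2-DMa also overlaps CR974462.3 on its own strand.

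The promoters are shown because a shared X and Y module is the textbook link between these genes. RefSeq start windows (GRCm38.p6) were given for 4 members, and the 150 bases before the start are printed 5' to 3' on the strand of each gene for the 3 in which the pattern was found, with capitals for GNAAC (core of the X box) followed after 20 to 35 bases by ATTGG (core of the Y box). The windows are chr17:34287824-34287973 on the minus strand for H2-Aa, chr17:34305717-34305866 on the plus strand for H2-Eb1 and chr17:34153041-34153190 on the plus strand for H2-DMb1.
H2-Aa: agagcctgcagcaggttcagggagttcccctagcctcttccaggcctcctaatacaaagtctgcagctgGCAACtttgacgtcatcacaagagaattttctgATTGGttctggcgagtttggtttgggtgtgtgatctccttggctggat
H2-Eb1: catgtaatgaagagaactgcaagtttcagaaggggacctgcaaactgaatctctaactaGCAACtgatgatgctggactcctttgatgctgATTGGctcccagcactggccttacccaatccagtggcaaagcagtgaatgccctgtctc
H2-DMb1: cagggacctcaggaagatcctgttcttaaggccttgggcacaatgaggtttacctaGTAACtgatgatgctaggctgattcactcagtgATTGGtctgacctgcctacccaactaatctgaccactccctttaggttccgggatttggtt
The cores were 28 bases apart in H2-Aa, 27 in H2-Eb1 and 28 in H2-DMb1, and the Y core began 48, 59 and 61 bases before the start. Neither of the 2 windows of H2-DMa held the pair. They lie at chr17:34122582-34122881 and chr17:34125268-34125567, both inside the span of the gene given above. No other start of H2-DMa was searched, so whether it has the pair elsewhere was not tested. On both strands, 878 of all 32851 RefSeq windows (2.67%) held such a pair and 12289 (37.4%) held ATTGG, so the match describes these letters and does not show a bound site.

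The 6 genes together had 9654 UMIs, 0.134% of the library, and 1587 cells (77.2%, interval 75.4 to 79.0%) had at least 1 of them. Most of that breadth came from H2-DMa. Levels below are the mean over cells of UMIs per 10000 UMIs of the cell. In the order of level, Cd74 stood at 4.93 and H2-DMa at 3.07, followed by H2-Ab1 at 1.36, H2-Aa at 1.34, H2-DMb1 at 0.827 and H2-Eb1 at 0.544. The neighbours H2-Ab1 and H2-Aa did not differ beyond counting error, with 0.988 H2-Aa UMIs for each H2-Ab1 UMI (interval 0.908 to 1.07).

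Of the classical chains, H2-Aa was detected in 359 cells (17.5%, interval 15.9 to 19.2%) and H2-Ab1 in 395 cells (19.2%, interval 17.5 to 20.99%). The counts per cell ran from 0 through a median of 0 to a highest of 119 UMIs of H2-Aa and 140 of H2-Ab1. The 2 chains of I-A thus had about equal totals, of 1106 and 1120 UMIs. H2-Eb1, the beta chain of I-E, was detected in 192 cells (9.34%, interval 8.12 to 10.7%), with a median of 0 and a highest count of 72. Its 469 UMIs were 0.419 (interval 0.375 to 0.467) of those of H2-Ab1. No row for its alpha chain partner H2-Ea was listed in the table, so no I-E dimer is read from these counts.

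Cd74, the invariant chain (chr18:60803848-60812652, plus strand), had the most UMIs of the group, 4102, in 685 cells (33.3%, interval 31.3 to 35.4%). Its median was 0 and its highest count 351. Cd74 had 3.66 UMIs (interval 3.43 to 3.92) for each UMI of H2-Ab1. The excess over the I-A chains was seen in every range of summed class II UMIs, from 1.47 (interval 1.26 to 1.73) Cd74 UMIs for each UMI of H2-Aa and H2-Ab1 together in cells with 6 to 10 class II UMIs to 2.31 (interval 2.07 to 2.58) in cells with 21 to 50.

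The DM chains behaved differently over cells. H2-DMa, the DM alpha chain, was detected in 1224 cells (59.6%, interval 57.4 to 61.7%), with 0 to 13 UMIs per cell and a median of 1. H2-DMb1, the DM beta chain, was detected in 464 cells (22.6%, interval 20.8 to 24.4%), with at most 8 UMIs per cell. H2-DMa had 3.83 UMIs (interval 3.49 to 4.20) for each UMI of H2-DMb1, although the proteins work as a dimer. H2-DMb2, the second DM beta gene, added 72 UMIs in 63 cells.

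The spread over cells set these groups apart more than the mean level did. The 40 cells with the most Cd74 held at least 50% of its UMIs, and 13 cells did so for H2-Eb1, 35 for H2-Ab1 and 38 for H2-Aa. For H2-DMa it took 337 cells and for H2-DMb1 168. The 10 highest cells held 29.9% of the Cd74 UMIs and 46.9% of the H2-Eb1 UMIs, but 3.58% of the H2-DMa UMIs. In the plot of UMIs against the rank of the cell, the 4 lines of H2-Aa, H2-Ab1, H2-Eb1 and Cd74 are steep and those of the DM chains nearly flat.

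**Figure D1:**
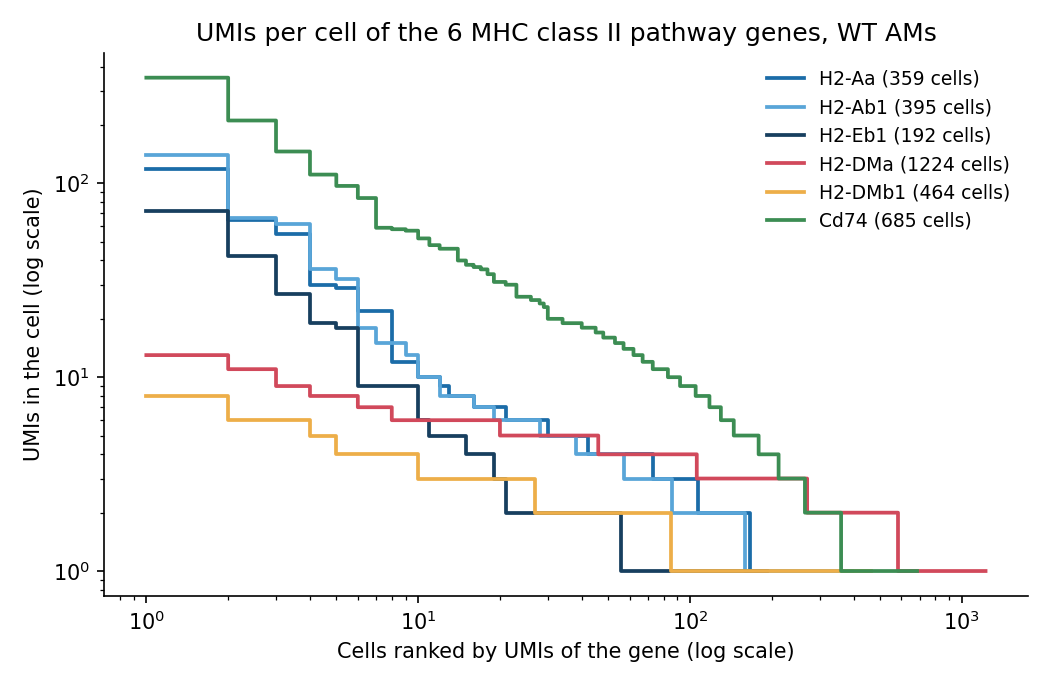
UMIs per cell of each gene (y axis, log scale) in the cells with at least 1 UMI of it, ranked from the highest (x axis, log scale), with 1 line per gene. Cd74 runs from 351 UMIs in the highest cell to 1 in its 685th, while H2-DMa reaches more cells (1224) with no more than 13 UMIs in any.

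Spreading the UMIs of Cd74 over all cells in proportion to their depth would have put a UMI in 81.9% of cells, and 33.3% had one. The same reckoning put H2-Eb1 in 20.0% of cells (9.34% observed), H2-Ab1 in 40.6% (19.2%) and H2-Aa in 40.2% (17.5%). For the DM chains it gave nearly what was seen, 63.5% against 59.6% for H2-DMa and 24.5% against 22.6% for H2-DMb1. The variance over the mean of UMIs, with every cell thinned to 2000 UMIs (1756 cells kept, 299 shallower cells left out), was 21.2 for Cd74, 9.59 for H2-Ab1, 7.23 for H2-Eb1 and 6.61 for H2-Aa. Among the 5945 genes detected in at least 5% of cells these ranked 2, 5, 7 and 9 from the highest, where the median gene had 1.02. H2-DMa (1.19, rank 313) and H2-DMb1 (1.17, rank 351) were far lower in that order. These measures include the cells of low AM marker share described below and were not taken without them.

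Most detections rested on few molecules. A count of 1 made up 47.6% of the cells with Cd74, 54.0% of those with H2-Aa, 237 of the 395 with H2-Ab1, 71.4% of those with H2-Eb1, 52.5% of those with H2-DMa and 81.9% of those with H2-DMb1. With every cell thinned to 2000 UMIs, H2-DMa was detected in 43.6% of cells, Cd74 in 26.2%, H2-DMb1 in 14.4%, H2-Ab1 in 13.3%, H2-Aa in 12.6% and H2-Eb1 in 6.21%. No group of cells known to lack class II was set apart in this sorted library, so the share that free RNA gives was not measured for these genes. For scale, the epithelial genes Sftpc and Scgb1a1 had a UMI in 6.86% and 5.50% of cells, and the plasma cell gene Jchain in 3.21% of cells (66), 1 of which held 940 of its 1006 UMIs. The part of free RNA in the cells with 1 UMI of H2-Eb1 or its partners was not tested.

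Joint detection followed the same split. No member was found in 468 cells (22.8%), 1 in 716, 2 in 436, 3 in 189, 4 in 109, 5 in 94 and all 6 in 43 (2.09%). Of the 716 cells with a single member, 492 (68.7%) had H2-DMa, 100 had Cd74 and 66 had H2-DMb1, while H2-Ab1, H2-Aa and H2-Eb1 were alone in 26, 24 and 8 cells. Over H2-Aa, H2-Ab1, H2-Eb1 and Cd74 alone, 1144 cells (55.7%) had none and 100 cells (4.87%, interval 3.98 to 5.89%) had all 4. Deeper cells showed more members, with a median of 2518 UMIs in the cells with none of the 6 and 5183 in those with all.

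A UMI of a classical chain went with UMIs of the others. H2-Ab1 was detected in 57.1% (interval 51.8 to 62.3%) of the 359 cells with H2-Aa and in 11.2% of the 1696 cells without it. Cells with Cd74 had H2-Aa in 39.1%, H2-Ab1 in 40.0% and H2-Eb1 in 22.5%, against 6.64%, 8.83% and 2.77% of the cells without Cd74. For the DM chains the gap was smaller, with H2-DMa in 68.0% against 55.3% and H2-DMb1 in 32.8% against 17.4%. At 2000 UMIs a cell the order held, with 33.7% against 5.09% for H2-Aa and 48.9% against 41.7% for H2-DMa. The converse is seen in the H2-Eb1+ cells, 80.2% of which had Cd74.

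**Figure D2:**
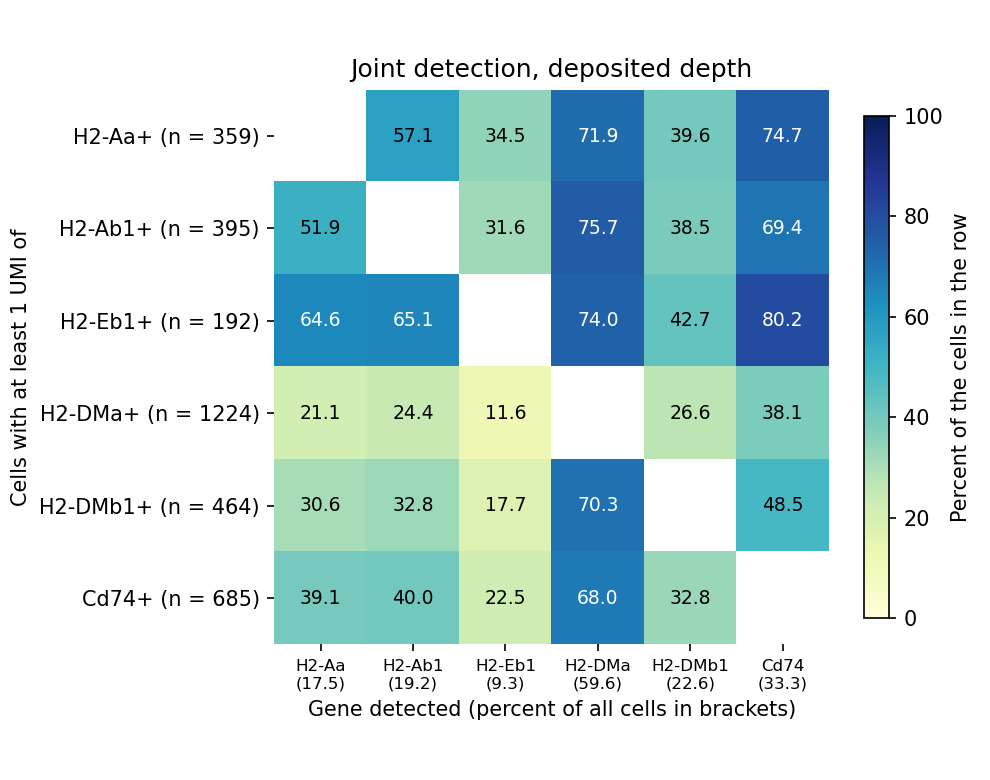
Percent of the cells with at least 1 UMI of the row gene (n in brackets) in which the column gene was also detected, with the share over all 2055 cells under each column name. The column of H2-DMa is high in every row (68.0 to 75.7%), whereas H2-Eb1 runs from 11.6% of H2-DMa+ cells to 34.5% of H2-Aa+ cells.

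The level followed Cd74 as well as the detection. From the 1370 cells with no Cd74 UMI to the 91 cells with 10 or more, the summed UMIs per 10000 of H2-Eb1 went from 0.0882 to 7.46, those of H2-Aa from 0.212 to 15.3 and those of H2-Ab1 from 0.298 to 15.6. These 3 genes were higher in each further range of Cd74 UMIs. The 91 cells include the 4 cells of low AM marker share described below, with 351, 211, 97 and 57 Cd74 UMIs. The ranges were not taken without those 4 cells. H2-DMa was level at 2.94 with 0 Cd74 UMIs, 2.95 with 1 and 2.81 with 2, all within each other's intervals, and stood at 5.33 (interval 4.66 to 6.07) with 10 or more. H2-DMb1 lay between, from 0.609 to 2.61. Median depth went from 3034 to 4410 UMIs per cell over the same ranges, which a value per 10000 takes out and a share of cells does not.

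**Figure D3:**
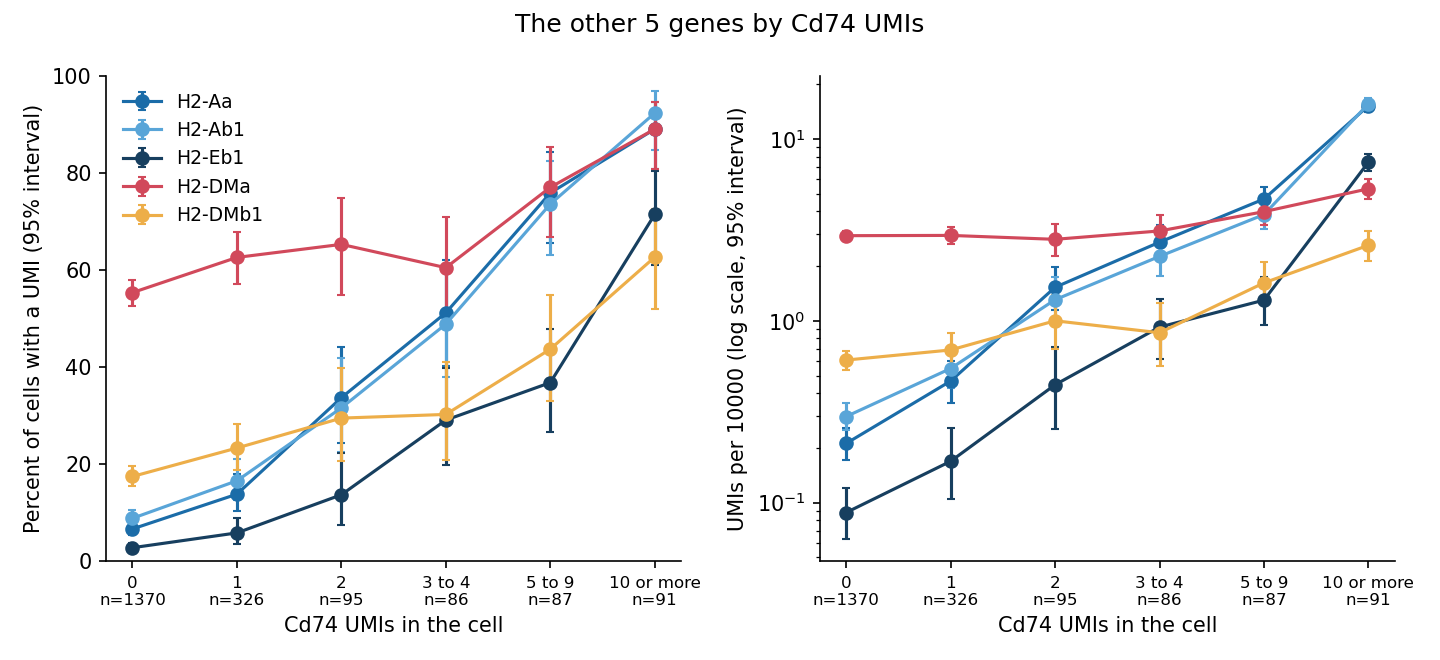
Detection (left, percent of cells) and level (right, UMIs per 10000, log scale) of the other 5 genes by the number of Cd74 UMIs in the cell, with n cells under each range and exact 95% counting intervals as bars. On the right, H2-Aa, H2-Ab1 and H2-Eb1 go from below both DM chains in cells without Cd74 to above them at 10 or more Cd74 UMIs. On the left, H2-DMa runs from 55.3% to 89.0% of cells.

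The make-up of the class II UMIs changed with their sum. In the 827 cells with 1 to 2 class II UMIs, H2-DMa made up 57.6% of them and Cd74 17.4%. In the 62 cells with 21 to 50, Cd74 made up 58.6% and H2-DMa 8.08%. In the 16 cells with over 50, Cd74 made up 55.6%, H2-Ab1 16.2%, H2-Aa 15.3%, H2-Eb1 8.71% and H2-DMa 2.63%. These 16 cells, 0.779% of all, held 27.6% of the class II UMIs. The ranges use the members themselves, so the lower share of an evenly spread gene in the higher ranges is partly set by how they were cut.

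**Figure D4:**
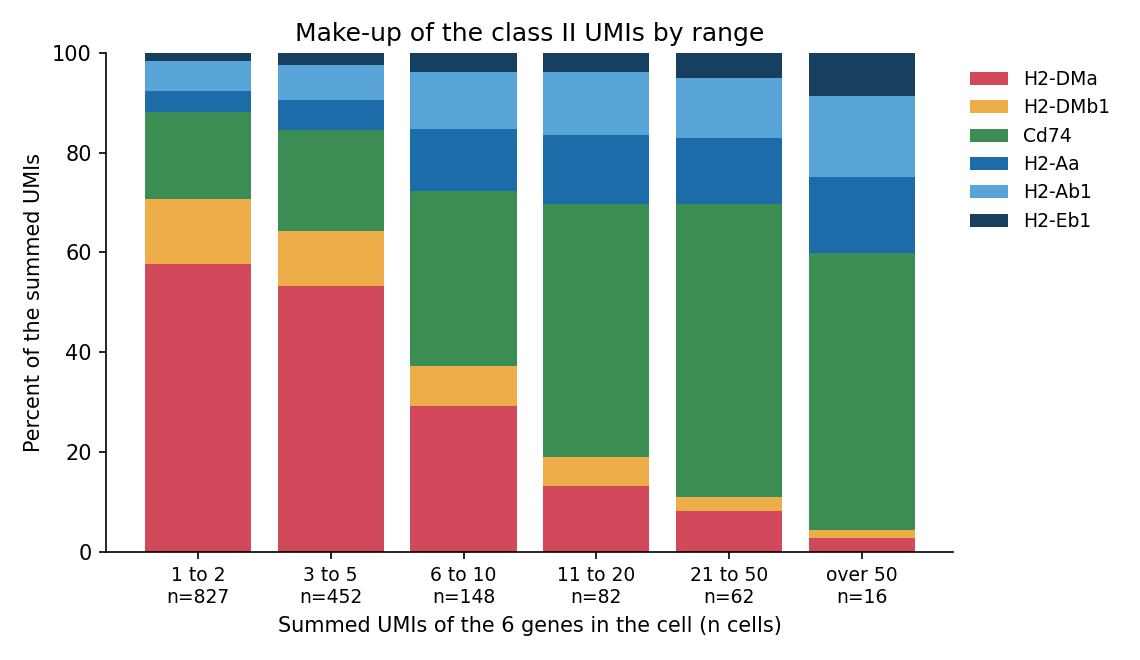
Share of each gene in the summed class II UMIs (y axis, percent) for cells in 6 ranges of that sum (x axis, n cells under each range). H2-DMa and H2-DMb1 fill most of the bar at 1 to 2 UMIs, and Cd74, H2-Aa, H2-Ab1 and H2-Eb1 nearly all of it over 50.

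Pairwise correlation over the 2055 cells, taken on the natural log of 1 plus UMIs per 10000, described the same 4 genes as a block. The 6 pairs among H2-Aa, H2-Ab1, H2-Eb1 and Cd74 had Pearson's r of 0.518 (H2-Ab1 and H2-Eb1) to 0.646 (H2-Aa and Cd74), with a median of 0.572. The 5 pairs of H2-DMa had r of 0.1005 to 0.168, and those of H2-DMb1 with the 4 genes 0.200 to 0.247. H2-DMa and H2-DMb1, the chains of 1 dimer, had r of 0.119 with each other. All cells share 1 library, its free RNA and the depth that enters every value, and r of this size in sparse counts is a description only. In cells that had both genes of a pair, r was 0.764 for H2-Aa and H2-Eb1 (124 cells), 0.668 for H2-Aa and H2-Ab1 (205 cells) and 0.303 for H2-DMa and Cd74 (466 cells). At 2000 UMIs a cell the median of the block was 0.485, and without the 16 cells with over 50 class II UMIs it was 0.495.

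The highest cells were not all alike in other markers. The highest of all had 119 H2-Aa, 140 H2-Ab1, 72 H2-Eb1, 13 H2-DMa, 4 H2-DMb1 and 351 Cd74 UMIs, 10.5% of all its UMIs. It also had 4 UMIs of Clec9a and 6 of Ccl22, which mark dendritic cells, 215 of Cst3 and none of Mrc1, and the AM list made up 0.780% of its UMIs (median of all cells 3.53%). The cell next in order, with 399 class II UMIs, had 199 UMIs of Cst3, 1 of Clec9a and an AM share of 0.834%. The cell sixth in order had 7 UMIs of the B cell gene Ms4a1, 3 of Cd79a, 8 of H2-DMb2 and an AM share of 0.545%. The cell ranked 15 had 57 Cd74 UMIs with no H2-Aa or H2-Ab1 UMI and 2 of H2-Eb1, beside 940 UMIs of Jchain, the joining chain of secreted antibodies.

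The other 12 of the 16 cells had AM shares of 2.81 to 9.43%. Lyz2 (119213 UMIs) and Chil3 (98148) together gave most of the 277681 UMIs of the AM list. The share alone therefore does not settle the type of a cell. Mrc1 had 1 to 8 UMIs in these 12 cells and 0 to 1 in the 4 named above. The third highest cell, with 291 class II UMIs, had an AM share of 5.76%, and the fourth, with 197, had 9.43% together with 21 UMIs of Cxcl9 and 19 of Cxcl10, chemokines induced by interferon gamma. The seventh, with 112 class II UMIs, had 8603 UMIs in all, the most of any cell, and an AM share of 3.62%. Of the B cell list, 3 of 9 genes were listed in the table, with a summed level of 0 to 945 UMIs over the 16 cells and 0 to 1 over the 468 cells with no class II UMI. Of the dendritic cell list, 6 of 12 were listed, with 0 to 10 UMIs over the 16 cells and 0 to 9 over the 468. UMIs of 2 or more genes of a list were found in 2 cells for the B cell list and 2 for the dendritic cell list, and all 4 were among these 16. UMIs of the epithelial list without Epcam were found in 4 of the 16 cells and in 268 of all cells, and those of the monocyte and interstitial macrophage list without Fn1 in 2 and 115. Epcam and Fn1 were set aside because they were detected in most cells (1193 and 1082). The neutrophil gene S100a8 was found in 2 and 207. None of the 5 T and NK cell genes was listed in the table. The part of other cell types in the class II levels was not tested beyond leaving cells out.

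The 4 cells named with low AM shares held 13.5% of all class II UMIs. These 4 cells held 26.7% of the H2-Eb1, 19.7% of the H2-Ab1, 18.6% of the H2-Aa and 17.5% of the Cd74 UMIs. Of the DM chains they held 1.02% (H2-DMa) and 2.03% (H2-DMb1). They were among the 103 cells (5%) lowest in the AM list, at or under 1.97% of UMIs, a limit chosen after the data were seen. Without those 103 cells the summed level was 4.81 UMIs per 10000 for Cd74 (5.68 with them), 0.490 for H2-Eb1 (0.649), 1.28 for H2-Ab1 (1.55) and 1.27 for H2-Aa (1.53). H2-DMa was 3.16 (3.14 with them) and H2-DMb1 0.813 (0.820). Detection was nearly as before, at 33.6% for Cd74 and 17.7% for H2-Aa, and the median r of the block was 0.553. In pairwise correlation, the split between the DM chains and the other 4 genes was also present in the 1952 cells left. The pairs of H2-DMa had a median r of 0.115 in those cells. The highest count in those cells was 146 for Cd74 and 11 for H2-DMa. Other measures of spread, such as the variance over the mean, were not taken without the 103 cells.

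The study names a cycling and an immune response cluster among these AMs, and similar states were cut here by gene lists that hold no class II gene. The groups are not the study's clusters, and the chemokine group takes in a far larger share of cells than its immune response cluster. The cluster that the study marks by class II genes was not compared. The groups were 103 cells with UMIs of at least 3 genes of a cycling list (such as Top2a and Birc5), 437 with at least 3 of a chemokine and cytokine list (such as Tnf and Cxcl2), and 1454 with neither, while 61 with both were not compared. H2-DMa had 2.17 UMIs per 10000 (interval 1.75 to 2.64) in the cycling cells and 3.26 (interval 3.10 to 3.43) in the cells with neither, a ratio of 0.665 (interval 0.535 to 0.817). Without the cells low in the AM list that ratio was 0.726 (interval 0.580 to 0.899). At 2000 UMIs a cell H2-DMa was detected in 32.7% of cycling cells (interval 23.5 to 42.9%) and 44.0% of cells with neither (interval 41.1 to 46.8%).

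For the classical chains and Cd74 these ratios turned on the cells low in the AM list. In the chemokine cells the ratio to the cells with neither was 0.944 (interval 0.876 to 1.02) for Cd74, 0.823 for H2-Ab1 and 0.822 for H2-Aa, and without the cells low in the AM list it was 1.26 (interval 1.17 to 1.36), 1.12 and 1.11. In the cycling cells H2-Eb1 had a ratio of 1.39 (interval 0.983 to 1.92), which was 2.54 (interval 1.76 to 3.57) without them, and Cd74 0.984 and 1.41. No direction is read from these values.

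The genes that go with the class II sum were sought among 5939 other genes detected in at least 5% of cells. At r of at least 0.1 there were 35 (0.589%), and at r of at most -0.1 there were 2 (0.0337%), around a median r of 0.00326. The upper count depends on the scale, at 6 with every cell thinned to 2000 UMIs, 4 with the deposited scaled score and 83 with 0.1 in place of 1 added before the log. The values were small, at most 0.212, and B2m and Lyz2 led. Beside each r stands the ratio of UMIs per 10000 between the 308 cells with 6 or more class II UMIs and the 468 with none. Median depth was 2518 UMIs in the latter and 3745 to 4854 in the ranges that make up the former.

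B2m, the light chain of class I molecules, had r of 0.212 and 40.8 against 25.0 UMIs per 10000, a ratio of 1.63 (interval 1.56 to 1.71). AW112010, a transcript known to be induced by interferon, had r of 0.125 and a ratio of 2.07 (interval 1.85 to 2.32). Cd52, a small surface glycoprotein of leukocytes, had r of 0.174 and a ratio of 1.87 (interval 1.66 to 2.11). Cst3, a cysteine protease inhibitor high in dendritic cells, had a ratio of 1.69, which was 1.29 (interval 1.18 to 1.40) without the cells low in the AM list. The other genes among the 15 highest were Lyz2, Ctss, Fcer1g, Fxyd5, Chil3, Ubb, H2-D1, 2410015M20Rik, Ear2, Arpc3 and Ndufa13. At the low end, Tpt1 had r of -0.133, Eef1a1 -0.105 and Actb, cytoplasmic actin, -0.091, with 115 against 164 UMIs per 10000 for Actb (ratio 0.703, interval 0.689 to 0.718). Actr2 and Bsdc1 completed the lowest 5.

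By number, the partners of the sum overlapped most with those of H2-DMa. Every member is part of the sum, so overlap is partly set by how the sum was built. Taken alone, H2-DMa had 56 genes with r of at least 0.1, 25 of which were among the 35 of the sum (71.4% of the 35 and 44.6% of the 56), led by Lyz2 (0.248), the tetraspanin Cd9 (0.215) and B2m (0.200). Cd74 had 7, led by Cd52 (0.156), B2m (0.145) and AW112010 (0.114), H2-Aa and H2-Ab1 had 3 each (B2m, Cd52 and S100a6), H2-Eb1 had 2 (Cd52 and Stxbp3) and H2-DMb1 had 0. All 7 of Cd74 and all 3 of H2-Aa and of H2-Ab1 were among the 35, as was 1 of the 2 of H2-Eb1. With the sum of the 4 members other than the DM chains in place of all 6, 7 genes reached 0.1. All 15 named genes with the highest r also had higher log values in deeper cells, with r of each to the UMIs per cell of 0.112 to 0.310. At 2000 UMIs a cell all 15 remained positive and 3 of them reached 0.1, and the part of depth in the rest was not tested further.

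The transcription machinery of class II was scarcely seen at this depth. Ciita, the class II coactivator, had 3 UMIs in 3 cells (0.146%). Of the RFX complex that binds the X box, Rfx5 was detected in 40 cells, Rfxap in 80 and Rfxank in 30. Of the 3 of 8 listed genes detected in at least 5% of cells, Nfya (r 0.0391), Nfyc (0.00571) and Creb1 (-0.0522), 0 reached 0.1 in either direction. Creb1 had a ratio of 0.498 (interval 0.325 to 0.752) between the 308 and the 468 cells, on 37 and 71 UMIs. H2-Oa, the alpha chain of the DM inhibitor DO, had 20 UMIs in 17 cells.

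Of 8 genes of endosomal processing, all were detected widely enough and 1 was past 0.1 upward and 0 downward, with a median r of 0.0260. Ctss, the cathepsin that cuts the invariant chain, had r of 0.164 and 41.9 against 30.3 UMIs per 10000, a ratio of 1.39 (interval 1.33 to 1.44). Its r was 0.0983 at 2000 UMIs a cell and 0.0980 with the scaled score, so that 0 genes of the list reached 0.1 there. Ctsh had a ratio of 1.27 (interval 1.07 to 1.49) and Ifi30, the lysosomal thiol reductase GILT, 1.18 (interval 0.980 to 1.42). Ctsl, the other cathepsin known to act on the invariant chain, had 1.02 (interval 0.881 to 1.18), and the aspartic protease Ctsd had 0.849 (interval 0.806 to 0.895). Counts of Sppl2a, which cleaves the last membrane stub of Cd74, gave 0.865 (interval 0.685 to 1.09).

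For class I, 12 of 18 genes were detected in at least 5% of cells and 2 were past 0.1 upward, B2m and H2-D1, and 0 downward, with a median r of 0.0460. The r of H2-D1 was 0.0888 at 2000 UMIs a cell and 0.0901 with the scaled score, which leaves B2m alone past 0.1. The heavy chains H2-D1 and H2-K1 had ratios of 1.23 (interval 1.15 to 1.32) and 1.16 (interval 1.06 to 1.27), smaller than that of B2m. H2-T23, a nonclassical class I gene, had 1.47 (interval 1.14 to 1.91), while the chaperone Canx had 0.854 (interval 0.768 to 0.948).

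Of 21 genes of the interferon gamma response, 20 were listed, 12 were detected in at least 5% of cells and 0 reached 0.1 in either direction, with a median r of 0.0133. The immunoproteasome genes Psmb8 and Psmb9 had r of 0.0945 and 0.0673, with ratios of 1.40 (interval 1.15 to 1.71) and 1.77 (interval 1.29 to 2.43). Gbp2, a guanylate binding protein, had 1.91 (interval 1.09 to 3.45) on 40 and 20 UMIs, and Irf1 had 0.928 (interval 0.557 to 1.54). Cxcl9 was found in 27 cells, under the limit of detection used for r, with 72 of its 81 UMIs in the 308 cells and 2 in the 468. That is a ratio of 34.4 (interval 9.19 to 290), which rests on 2 UMIs in the 468 cells, and 1 cell held 21 of the 72. The other 7 listed genes under that limit had ratios of 0.956 (Gbp3, on 7 and 7 UMIs, and Socs1, on 2 and 2) to 3.51 (Igtp, interval 0.926 to 19.6, on 11 and 3 UMIs), with Cxcl10 at 1.97 (interval 1.06 to 3.84) on 33 and 16 UMIs. The cell with 21 UMIs of Cxcl9 also held 19 of these 33, so no rise of Cxcl10 over the 308 cells is read from this ratio. The upstream receptors and kinases Ifngr1, Ifngr2, Jak1 and Jak2 had ratios of 0.913 to 0.982.

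**Figure D5:**
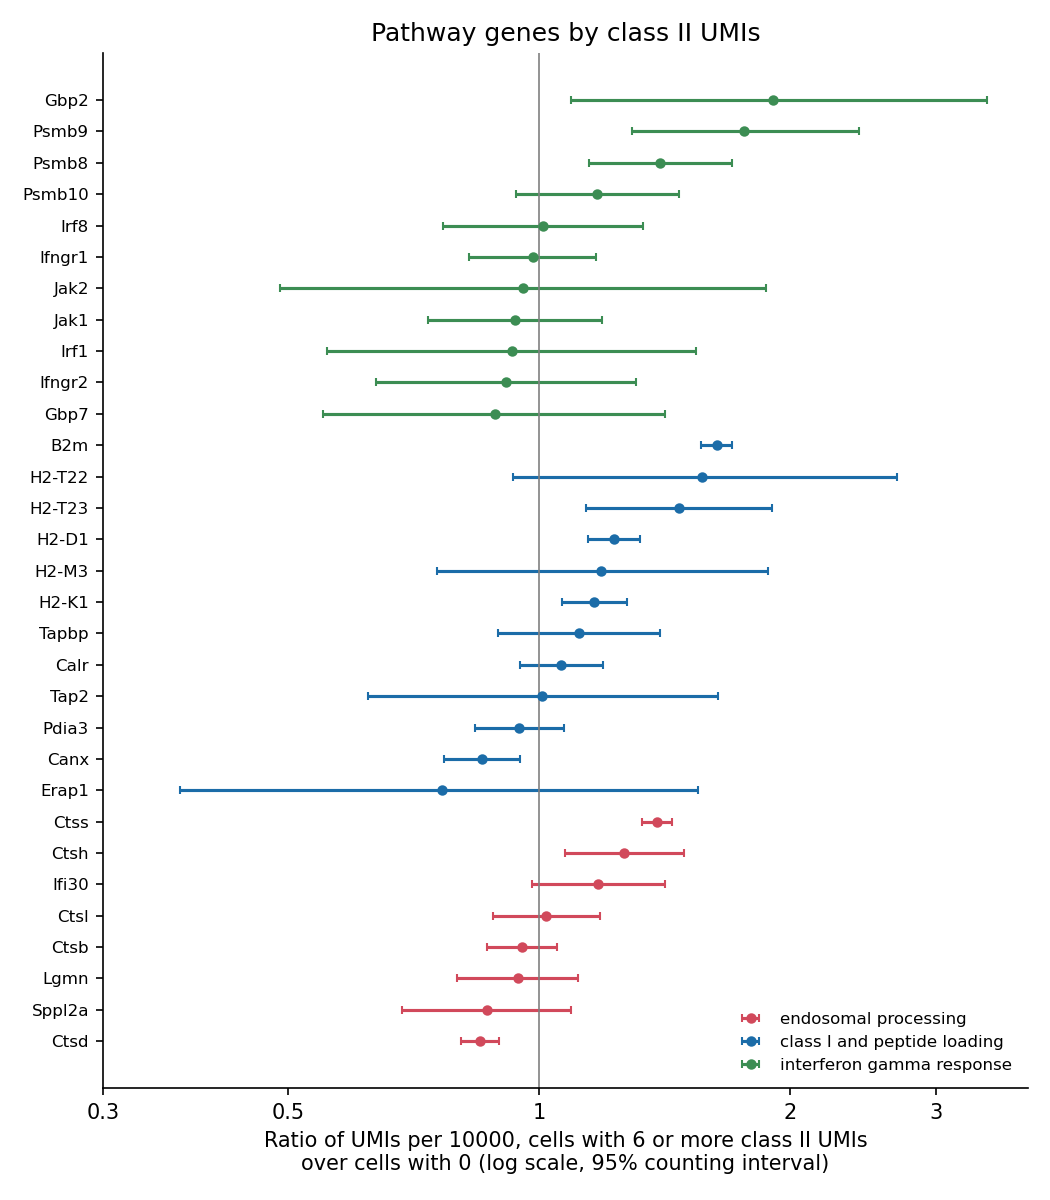
Ratio of UMIs per 10000 in cells with 6 or more class II UMIs (308 cells) over cells with none (468 cells), x axis on a log scale, for genes of 3 lists detected in at least 5% of cells, with exact 95% counting intervals. B2m and Ctss lie to the right of 1 with narrow intervals, and most genes of the interferon gamma response have intervals that hold 1.

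Of 8 costimulatory and turnover genes, 6 were detected in at least 5% of cells and 0 reached 0.1 in either direction, with a median r of 0.00718. Cd86, a ligand of CD28, had 43 and 32 UMIs (ratio 1.28, interval 0.794 to 2.098) and Cd80 1.06 (interval 0.660 to 1.72). March1, the ubiquitin ligase that takes class II off the surface, had 0.935 (interval 0.603 to 1.45). Cd83, which protects class II from that ligase, had 0.994 (interval 0.716 to 1.38), and 0.722 (interval 0.494 to 1.05) without the cells low in the AM list. Cd40 had 3 UMIs in all.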

How the data were processed

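The data were 1 single-cell library, without replicate, of sorted AMs of a WT (Hdac3 fl/fl) mouse. The authors counted UMIs with Cell Ranger 2.1 on mm10, ran Seurat and deposited the natural log of 1 plus UMIs per 10000 UMIs of the cell. The authors also deposited a scaled score, used here only as an alternative. Per their methods, cells with under 300 or over 2500 genes or over 5% mitochondrial content were dropped as a guard against doublets and poor cells, and sex-specific and ribosomal genes were removed. In the deposited values, however, 384 cells were over 5% on the 13 mitochondrial genes listed, and 81 ribosomal protein genes were listed, with 13.8% of the UMIs in the totals per cell. No further doublet caller was run.

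UMI counts were recovered here from the log values, of which 100% were whole multiples of the step of their cell (tolerance 0.001). Per cell there were 1143 to 8603 UMIs. Shares have Clopper-Pearson intervals, summed UMIs exact Poisson intervals and ratios exact conditional intervals, at 95% and for counting error only. Python 3.11.15, numpy 2.4.6, scipy 1.17.1, pandas 2.3.3 and matplotlib 3.10.9 were used. The interval and correlation steps were tested on simulated counts with known changes, drawn as independent Poisson counts. The intervals were not tested on counts bunched in few cells, as those of Cd74 and the classical chains are.

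The members and gene lists were chosen with earlier results of these data known. The genes named are the members, the genes of the lists, the 15 others with the highest and the 5 with the lowest r with the summed members among genes in at least 5% of cells, and the 3 highest for each member. 1 gene of the interferon gamma list is counted but not reported here. Markers of other cell types are named where they bear on a cell. For each r with a member, that member was left out of the sum. Alternatives were thinning to 2000 UMIs, limits on cells and genes, other scales and other sums. Leaving out cells low in the AM list or with over 50 class II UMIs, the sum without the DM chains and a limit of 4 genes for the states were added after the data were seen, as was the split of the top range at 50.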

Additional observations from a re-analysis of the deposited data

How the results depend on the processing

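No paired analysis was possible because there is 1 library. Under the alternatives, 155 values of the main results stayed within their interval or within 1.5 times the count and 35 moved further. They are mostly shares, counts and levels, which have no direction to reverse. Of the values of the other results, 552 stayed and 88 moved further. Without the cells low in the AM list, the ratios of Cd74, H2-Ab1 and H2-Aa in the chemokine cells went from below to above 1, as given above. In the chemokine cells H2-Eb1 (0.798 to 1.29) and H2-DMa (0.993 to 1.005) did so too. In the cycling cells H2-Aa (0.849 to 1.17), H2-Ab1 (0.992 to 1.54) and Cd74 (0.984 to 1.41) did. Thinning to 2000 UMIs gave detection of 12.6% for H2-Aa, 13.3% for H2-Ab1, 6.21% for H2-Eb1, 43.6% for H2-DMa, 14.4% for H2-DMb1 and 26.2% for Cd74, with no member in 34.7% of cells, all 4 of H2-Aa, H2-Ab1, H2-Eb1 and Cd74 in 2.28%, H2-Ab1 in 48.4% of cells with and 8.21% without H2-Aa, and H2-DMa in 48.9% with and 41.7% without Cd74, since fewer UMIs were counted. The median r of the 4 genes (0.572) was 0.485 thinned, 0.492 with 0.1 added before the log, 0.445 by Spearman and 0.495 without the cells with over 50 class II UMIs. The 35 genes with r of at least 0.1 became 6 thinned, 83 with 0.1 added, 4 with the scaled score, 23 by Spearman and 7 without the DM chains in the sum. The 2 with r of at most -0.1 became 4 at 5% mitochondrial content or less, 1 with 0.1 added, 4 with the scaled score, 5 by Spearman and 0 without the DM chains. The 1 endosomal gene became 0 thinned or with the scaled score, and the 2 class I genes 1 in these settings and without the DM chains. The causes were not tested. Levels from summed UMIs over summed totals were 1.53 for H2-Aa, 1.55 for H2-Ab1, 0.649 for H2-Eb1 and 5.68 UMIs per 10000 for Cd74. Depth limits what can be said of genes with few UMIs such as Ciita.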
